A study of Mus musculus with 8 samples.

Results

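The genes of the major histocompatibility complex (MHC, called H2 in the mouse) and of peptide processing were followed in brown adipose tissue of mice that lack PGRMC2 in adipose tissue. All rows of the expression table whose symbol starts with H2- were taken, together with B2m, Cd74, Ciita, Nlrc5, Tap1, Tap2, Tapbp, Psmb8, Psmb9, Psmb10, Psme1, Psme2, Erap1 and Ubd. This gave 58 of the 24535 genes in the table. Of these, 43 belong to the class I pathway (32 H2- symbols and 11 accessory genes) and 12 to the class II pathway. The other 3 were kept apart: Ubd, the MHC-region gene H2-Ke6 and the pseudogene H2-T-ps. In the annotation, 46 of the 58 lie on chromosome 17, and 4 (H2-L, H2-T9, H2-Q8 and H2-Q9) had no position under those symbols.

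The study measured poly(A) RNA in 8 libraries of brown adipose tissue, 4 from wild-type mice (WT 55, WT 62, WT 64 and WT 65) and 4 from mice with a PGRMC2 adipose tissue knockout (PATKO 53, PATKO 57, PATKO 70 and PATKO 71). PGRMC2 is described in the title of the study as an intracellular heme chaperone. The mice of both groups were of strain 129Sv/C57BL6j, 18 weeks old, housed at 30 °C and fed chow. The sources used here do not give the promoter that drove the deletion or the H2 haplotype of each mouse. The labels do not say that each number is 1 animal, so the p-values measure only the spread between these samples.

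Class I molecules sit on nearly all nucleated cells and show CD8 T cells peptides cut from proteins made inside the cell. The proteasome makes those peptides, the TAP transporter carries them into the endoplasmic reticulum, and tapasin loads them onto a heavy chain paired with beta-2-microglobulin. Class II molecules are made mainly by dendritic cells, macrophages and B cells and show CD4 T cells peptides from endocytosed proteins. In mouse adipose tissue, macrophages and dendritic cells are known sources of class II, and interferon-gamma raises both pathways through the transactivators Nlrc5 and Ciita.

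The promoters of 5 members are shown because they carry, or lack, the short elements for which MHC promoters are known. Sequences are from RefSeq, 250 bases before to 50 bases after the gene start on build GRCm38.p6, written 5′ to 3′ on the strand of the gene. The windows are chr17:34287774-34288073 on the minus strand for H2-Aa, the class II alpha chain, and chr17:34305617-34305916 on the plus strand for H2-Eb1, a class II beta chain. They are chr17:34000298-34000597 on the minus strand for H2-K1, a classical class I heavy chain, chr17:34187306-34187605 on the plus strand for Tap1, a subunit of the peptide transporter, and chr17:37193642-37193941 on the plus strand for Ubd. Capitals mark matches, on either strand, to 4 motifs. These are the Y box TGATTGG, the cAMP-response core TGACG, the NF-kB type GGGNNTTCC and the interferon type GAANNGAAA. Where a motif runs on the other strand, its reverse complement is in capitals.
H2-Aa: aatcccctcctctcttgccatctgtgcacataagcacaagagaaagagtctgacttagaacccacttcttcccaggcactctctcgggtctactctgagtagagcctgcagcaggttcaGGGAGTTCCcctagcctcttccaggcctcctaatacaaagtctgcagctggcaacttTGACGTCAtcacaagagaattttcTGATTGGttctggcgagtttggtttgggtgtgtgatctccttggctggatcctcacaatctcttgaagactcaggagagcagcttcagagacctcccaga
H2-Eb1: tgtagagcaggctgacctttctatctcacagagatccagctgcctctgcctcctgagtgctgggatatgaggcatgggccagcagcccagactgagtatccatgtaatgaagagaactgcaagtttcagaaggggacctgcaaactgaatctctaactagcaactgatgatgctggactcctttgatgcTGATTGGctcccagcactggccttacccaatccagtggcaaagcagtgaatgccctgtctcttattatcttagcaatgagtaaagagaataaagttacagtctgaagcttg
H2-K1: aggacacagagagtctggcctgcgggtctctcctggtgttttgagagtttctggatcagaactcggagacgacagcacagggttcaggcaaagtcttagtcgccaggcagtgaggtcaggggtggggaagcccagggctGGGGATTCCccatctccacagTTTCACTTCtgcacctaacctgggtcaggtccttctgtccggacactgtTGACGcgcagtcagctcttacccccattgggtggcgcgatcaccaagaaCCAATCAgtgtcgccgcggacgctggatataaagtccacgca
Tap1: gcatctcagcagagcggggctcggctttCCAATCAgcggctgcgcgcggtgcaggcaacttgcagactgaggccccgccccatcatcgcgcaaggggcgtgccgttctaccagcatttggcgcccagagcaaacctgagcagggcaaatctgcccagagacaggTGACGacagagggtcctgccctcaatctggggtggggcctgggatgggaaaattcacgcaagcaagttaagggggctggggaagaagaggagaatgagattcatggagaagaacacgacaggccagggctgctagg
Ubd: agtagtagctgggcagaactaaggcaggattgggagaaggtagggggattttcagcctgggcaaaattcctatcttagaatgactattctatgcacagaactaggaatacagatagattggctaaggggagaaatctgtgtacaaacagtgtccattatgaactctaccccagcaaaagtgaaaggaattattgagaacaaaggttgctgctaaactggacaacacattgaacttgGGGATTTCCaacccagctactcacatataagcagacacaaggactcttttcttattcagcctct

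The Y box letters, counted on either strand and anywhere in the window, were in 7 of the 8 class II members with a promoter entry. They were in 17 of 31 class I members, and in 7.82% of all 32851 promoters of the same length. The class II window without them was that of H2-DMa. In H2-K1 and Tap1 they run on the other strand, and in H2-K1 they lie after the gene start. The class I count is thus not one of Y boxes in the usual place and direction. The TGACG core was in 1 of 8 class II and 15 of 31 class I windows, against 20.8% of all promoters. In H2-Aa the printed match is TGACGTCA, in which a core on each strand overlaps the other. The NF-kB type was in 2 of 8 class II and 6 of 31 class I windows, against 5.82% of all, and the interferon type was in 0 of 8 and 9 of 31, against 7.52%. The Tap1 and Psmb9 windows share 275 of their 300 bases, because the genes start beside each other and run in opposite directions, so their matches are not separate. A total of 42 of the 58 members had an entry, and a match describes letters in the window and not a bound site.

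Values are FPKM, fragments scaled by transcript length and library size, as the authors deposited them, so levels of different genes can be compared per length. The knockout was visible in every library, with Pgrmc2 between 35.5 and 41.5 FPKM in WT and between 2.99 and 3.67 FPKM in PATKO. The summed level of 11 brown adipocyte markers was 12815 to 14562 FPKM in WT and 13311 to 15080 FPKM in PATKO, and none of these markers passed the test. The libraries differed in a way that touches every comparison below. FPKM totals ran from 287525 to 291153 in WT and from 307371 to 315232 in PATKO, and the median log2 change of the 12235 tested genes was 0.17. Differences were therefore tested with limma on log2(FPKM + 0.5), for genes averaging at least 0.5 FPKM, both as deposited and after median-of-ratios scaling, which brings the median gene to -0.00. As deposited, limma called 1646 genes at a Benjamini-Hochberg adjusted p under 0.05, which is 13.5% of those tested. Of these, 1613 (13.2%) were higher and 33 (0.27%) were lower in PATKO. After scaling it called 15 (0.123%), with 10 (0.0817%) higher and 5 (0.0409%) lower.

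Of the 58 members, 37 were tested, and 1, Ubd, was called as deposited. No other member passed the threshold in either direction, and after scaling none did. The log2 change was below 0 in 30 of 37 tested members as deposited, against 16% of all tested genes, and in 34 of 37 after scaling, against 51.1% of all. At an unadjusted p under 0.05, limma found 1 member lower and 0 higher as deposited, beside 1.39% lower and 34.6% higher among all genes. After scaling it found 14 lower and 0 higher, beside 8.21% lower and 9.1% higher among all genes. In whole tissue, fewer cells of a type and less RNA per cell cannot be told apart.

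**Figure D1:**
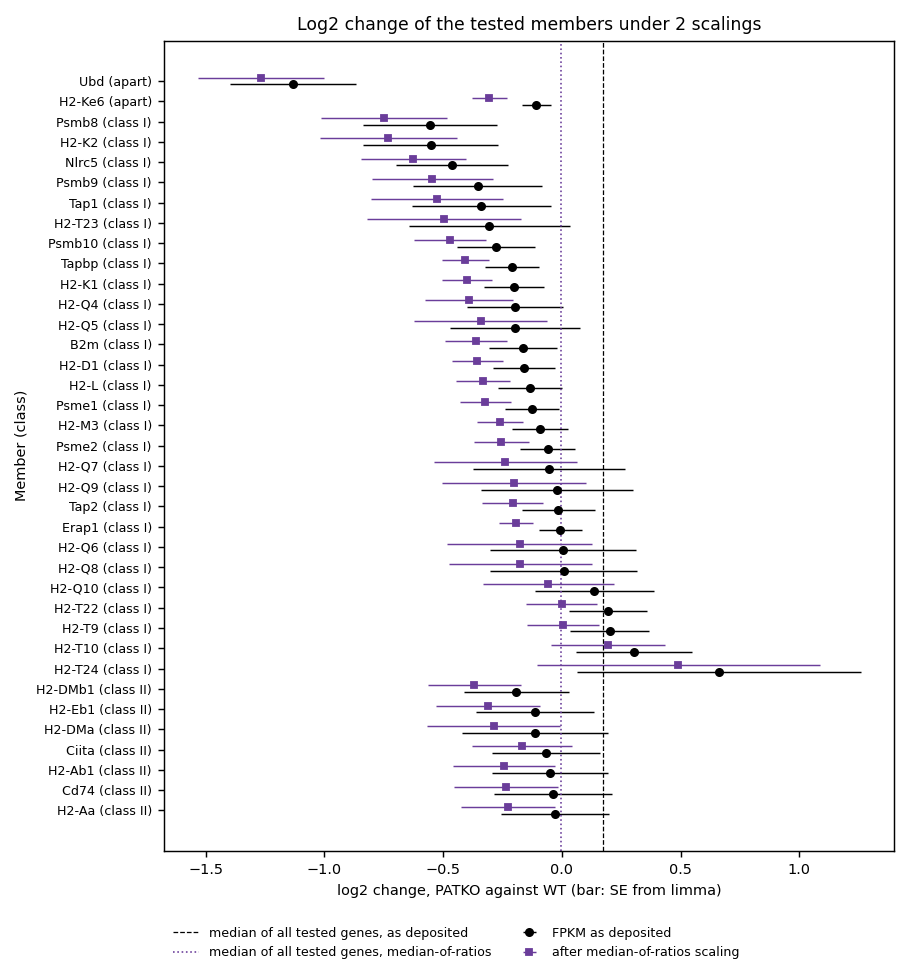
Log2 change of each tested member, PATKO against WT (x axis, log2 of FPKM + 0.5; bars are the standard error from limma, n = 4 libraries a group). Black circles are values as deposited and purple squares those after median-of-ratios scaling; the vertical lines mark the median of all tested genes, and Ubd lies farthest to the left under both.

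Class I as a whole had 28 tested members, of which limma called 0 in either direction under either scaling. The change was below 0 in 21 of the 28 as deposited and in 25 after scaling, with medians of -0.13 and -0.33, against 0.17 and -0.00 for all tested genes. As deposited, the class I median was -0.03 without WT 55, with 16 of 28 below 0, -0.05 without WT 65, with 17 below 0, and -0.25 without WT 62, with 23 below 0. Leaving out PATKO 70 gave -0.20. At an unadjusted p under 0.05 limma found 0 lower and 0 higher as deposited and 12 lower after scaling. Without WT 55 it found 4 higher as deposited, beside 34.8% of all tested genes. Also as deposited, it found 5 lower without WT 62, beside 1.54%, and 5 lower without WT 64, beside 2.17%. After median-of-ratios scaling it found 20 lower without WT 62, beside 7.04% of all tested genes, and 7 lower without WT 65, beside 6.68%. Scaled to a common total, 6 were lower, beside 3.33% of all genes, and after quantile normalization 10 were lower, beside 8.15%.

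The classical heavy chains bind the peptide and are seen by the T cell receptor. H2-K1 was at 273.2, 242.7, 202.2 and 292.7 FPKM in WT 55, 62, 64 and 65 and at 198.8, 198.9, 261.4 and 216.9 FPKM in PATKO 53, 57, 70 and 71. WT 62 and WT 64 lay within the PATKO range and PATKO 70 and PATKO 71 within the WT range, so the groups overlapped. The means were 252.7 ± 39.5 FPKM in WT and 219.0 ± 29.5 FPKM in PATKO (SD, n = 4 each), and limma gave a log2 change of -0.20 ± 0.13 (SE) with an adjusted p of 0.268. After scaling the change was -0.40 with a limma adjusted p of 0.143.

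H2-D1 was at 300.9, 253.8, 242.8 and 342.9 FPKM in WT and 230.2, 233.3, 311.5 and 244.8 FPKM in PATKO. The order of the libraries was close to that of H2-K1, with WT 65, WT 55 and PATKO 70 the highest. Its log2 change was -0.16 ± 0.13 with a limma adjusted p of 0.389 (-0.36 and 0.163 after scaling). H2-L, whose level was 0.849 to 0.896 of that of H2-D1 in every library, changed by -0.13 with a limma adjusted p of 0.483. H2-L had no position in the annotation, and the authors' counting could split the reads of near-identical sequences between symbols. The separate values are therefore uncertain, and the H2-L row is not shown to be a gene apart from H2-D1. Summed over the rows for H2-K1, H2-D1 and H2-L, the level was 659.0 to 934.6 FPKM in WT and 628.2 to 851.9 FPKM in PATKO. The same limit holds for this sum.

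B2m, the light chain shared by all class I molecules, had the highest level of any member, at 995.9, 690.0, 811.9 and 950.6 FPKM in WT and 708.6, 638.3, 947.3 and 784.9 FPKM in PATKO. The groups overlapped, with PATKO 70 as high as the upper WT libraries. Its log2 change was -0.16 ± 0.14 with a limma adjusted p of 0.421 (-0.36 and 0.213 after scaling). The ratio of H2-K1 to B2m within a library, which does not depend on scaling, was 0.296 ± 0.0444 in WT and 0.286 ± 0.0172 in PATKO (SD, n = 4 each; two-sided exact permutation p = 0.857).

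Nonclassical class I genes lie in the Q, T and M regions of the H2 complex and have narrower roles. H2-Q10, known in the mouse as a secreted molecule made in liver, was at 19.4, 32.7, 26.2 and 38.0 FPKM in WT and 42.9, 31.4, 19.6 and 35.01 FPKM in PATKO. Its pattern was unlike that of the other abundant members, since WT 55 and PATKO 70 were the lowest. H2-Q4 was at 23.8, 11.9, 18.6 and 17.4 FPKM in WT and 12.1, 14.4, 20.2 and 14.7 FPKM in PATKO, with overlapping groups. H2-Q6 and H2-Q7 had PATKO means of 6.60 and 7.52 FPKM against 6.89 and 8.24 FPKM in WT. The level of H2-Q8 was 0.962 to 0.970 of H2-Q6, and that of H2-Q9 was 0.787 to 0.866 of H2-Q7, so these pairs are uncertain for the same reason as H2-D1 and H2-L. Limma adjusted p-values over H2-Q4 to H2-Q10 ran from 0.493 for H2-Q4 to 0.994 for H2-Q6, and H2-Q6, H2-Q8 and H2-Q10 had opposite signs under the 2 scalings. H2-M3, which presents N-formylated peptides, was at 2.29 to 3.23 FPKM in WT and 2.36 to 3.07 FPKM in PATKO.

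The genes of the T region, within 115.771 kb of chromosome 17 (36005695 to 36121465, GRCm38), set WT 55 apart from the other WT libraries. H2-T24 was at 18.3 FPKM in WT 55, at 1.64, 1.76 and 2.20 FPKM in WT 62, 64 and 65, and at 5.94, 5.0, 6.92 and 5.36 FPKM in PATKO. Every PATKO library thus lay above 3 WT libraries and below WT 55, and the WT mean of 5.98 ± 8.23 FPKM (SD, n = 4) stands for none of them. With all libraries its log2 change was 0.66 ± 0.60, with a limma adjusted p of 0.433. Without WT 55, the library with the highest value, it was 1.41 with a limma adjusted p of 0.0032. H2-T24 was then the 1 of 28 tested class I members called, beside 1398 of all 12235 tested genes called higher. Each library was left out in turn, and no other omission gave a call in class I.

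The same arrangement held for H2-T22, bound by some gamma-delta T cell receptors, at 45.6 FPKM in WT 55, 24.8 to 31.7 FPKM in the other WT libraries and 31.8 to 39.0 FPKM in PATKO. It also held for H2-T10, at 1.25, 0.307 to 0.455 and 0.616 to 0.954 FPKM in these 3 sets, and for the pseudogene H2-T-ps, at 1.07, 0.052 to 0.053 and 0.272 to 0.350 FPKM. H2-T9, which had no position in the annotation, was at 1.03 to 1.05 times the level of H2-T22 in every library. This pair is uncertain for the same reason as H2-D1 and H2-L. H2-T9 missed the arrangement narrowly, with the lowest PATKO value at 32.73 FPKM and WT 65 at 32.80 FPKM. Every PATKO library above WT 62, 64 and 65 with WT 55 above every PATKO library was found in 3 of 28 tested class I members (10.7%) and in 0.924% of all tested genes. H2-Bl was at 0.711 FPKM in WT 55, 0 to 0.171 FPKM in the other WT libraries and 0.486 to 0.844 FPKM in PATKO. H2-T23, the mouse Qa-1 molecule read by natural killer cell receptors, was at 35.9 FPKM in WT 55 too, but its other WT values of 8.84 to 16.8 FPKM covered the PATKO range of 10.6 to 16.1 FPKM. H2-Bl, H2-T-ps and H2-T10 were singled out after their values were seen. All 3 were near the floor of the table. H2-Bl and H2-T-ps were under the minimum for testing, and H2-T10 had a mean of 0.695 FPKM. Without read counts, the spread that counting alone gives at these levels is not known.

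**Figure D2:**
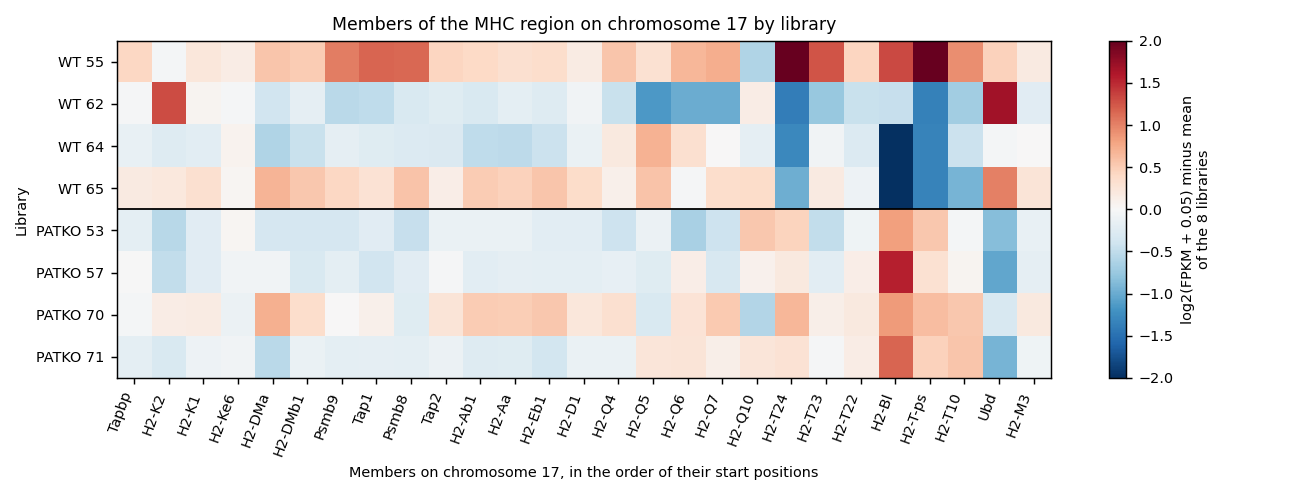
Members on chromosome 17 that were tested, with H2-Bl and H2-T-ps, in order of start position (x axis), 1 row a library (y axis), coloured by log2(FPKM + 0.05) minus the mean of the 8 libraries, with the colour scale limited at -2 and 2. H2-T24, H2-T-ps and H2-T10 are highest in WT 55, lowest in WT 62, 64 and 65 and between these in PATKO, whereas the class II genes are high in WT 55, WT 65 and PATKO 70.

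Nlrc5, the class I transactivator, was at 4.85, 1.97, 2.15 and 3.61 FPKM in WT and 1.54, 2.23, 2.31 and 2.04 FPKM in PATKO. WT 55 and WT 65 were above every PATKO library, and WT 62 and WT 64 were among them. The log2 change was -0.46 ± 0.24 with a limma adjusted p of 0.182. After scaling it was -0.63 with a limma adjusted p of 0.208, and every PATKO library then lay below every WT library.

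The 3 immunoproteasome subunits take the place of constitutive proteasome subunits under interferon and change which peptides are cut. Psmb8 was at 47.3, 17.1, 17.5 and 31.5 FPKM in WT and 15.5, 18.1, 17.9 and 18.5 FPKM in PATKO. The PATKO libraries stood close together near WT 62 and WT 64, and WT 55 and WT 65 stood above them. The means were 28.4 ± 14.3 and 17.5 ± 1.37 FPKM (SD, n = 4 each), a PATKO mean of 61.7% of WT, with a log2 change of -0.56 ± 0.28 and a limma adjusted p of 0.180 (-0.75 and 0.212 after scaling). Without WT 55 the change as deposited was -0.27 for Psmb8, -0.08 for Psmb9, -0.12 for Psmb10 and -0.26 for Nlrc5.

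For Psmb9, too, WT 55 and WT 65 stood above every PATKO library, at 31.3, 10.6, 13.6 and 20.4 FPKM in WT and 12.2, 13.4, 15.4 and 13.4 FPKM in PATKO, with a limma adjusted p of 0.356. Psmb10 was at 31.4, 17.4, 19.4 and 24.3 FPKM in WT and 16.1, 20.6, 18.99 and 18.5 FPKM in PATKO, with a limma adjusted p of 0.238. The summed level of the 3 subunits was 110.1, 45.1, 50.4 and 76.2 FPKM in WT against 43.8 to 52.3 FPKM in PATKO. The PATKO range thus overlapped WT 62 and WT 64 and lay below WT 55 and WT 65.

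Within a library, each subunit was set against the constitutive subunit it replaces. The ratio of Psmb8 to Psmb5 was 0.891 ± 0.474 in WT and 0.606 ± 0.154 in PATKO (SD, n = 4 each; two-sided exact permutation p = 0.371). Psmb9 to Psmb6 was 0.176 ± 0.0843 and 0.115 ± 0.0164 (exact p = 0.257), and Psmb10 to Psmb7 was 0.230 ± 0.0751 and 0.178 ± 0.0170 (exact p = 0.314). Without WT 55 the log2 difference of these ratios went from -0.43 to -0.13, from -0.49 to -0.22 and from -0.31 to -0.12. Adjusted over the 6 ratios tested, each of these is 0.514, and the smallest p that 70 assignments of 4 against 4 allow is 0.0286. Psme1 and Psme2, which form the interferon-inducible activator that caps the proteasome, had means of 75.4 and 31.8 FPKM in WT and 68.3 and 30.3 FPKM in PATKO. The ratio of Psme1 to the constitutive activator Psme3 was 3.08 ± 0.430 in WT and 2.85 ± 0.131 in PATKO (exact p = 0.429).

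Tap1 and Tap2 form the peptide transporter. Tap1 was at 20.6, 6.39, 7.75 and 11.1 FPKM in WT and 7.79, 6.999, 9.78 and 8.05 FPKM in PATKO, and Tap2 at 26.4, 16.7, 16.0 and 21.47 FPKM in WT and 17.8, 19.4, 23.4 and 18.0 FPKM in PATKO. WT 55 was the highest for both and the groups overlapped. Limma gave adjusted p-values of 0.416 for Tap1, with a log2 change of -0.34, and 0.953 for Tap2. Without WT 55 the change of Tap1 was -0.02. Erap1, which trims peptides in the endoplasmic reticulum, had nearly equal means of 9.45 ± 1.09 FPKM in WT and 9.37 ± 0.540 FPKM in PATKO (SD, n = 4 each).

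Tapbp, which encodes tapasin, was at 59.7, 44.2, 40.3 and 50.7 FPKM in WT and 39.1, 44.6, 43.8 and 39.1 FPKM in PATKO. As deposited, PATKO 57 and PATKO 70 lay within the WT range, so the groups overlapped. The log2 change was -0.21 ± 0.11 with a limma adjusted p of 0.208. After scaling it was -0.41, the groups did not overlap, and the limma adjusted p was 0.132.

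All 11 class I accessory genes had a log2 change below 0 under both scalings, with medians of -0.21 as deposited and -0.41 after scaling, whereas the 17 tested heavy chain genes had medians of -0.05 and -0.24. As deposited, 0 of the 28 class I members had every PATKO library below every WT library, against 0.597% of all tested genes, and 0 had the opposite, against 24%. After scaling 4 did (Psmb8, Nlrc5, Tapbp and Psme1), all of them accessory genes, against 4.36% of all genes, and 0 had every PATKO library above, against 5.57%. The highest of the 8 libraries was WT 55 for 20 of 28 tested class I members (71.4%) and for 6.94% of all tested genes. WT 55 was also the shallowest library, since the values of low genes put the depth of the others at 1.31 to 1.42 times that of WT 55.

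**Figure D3:**
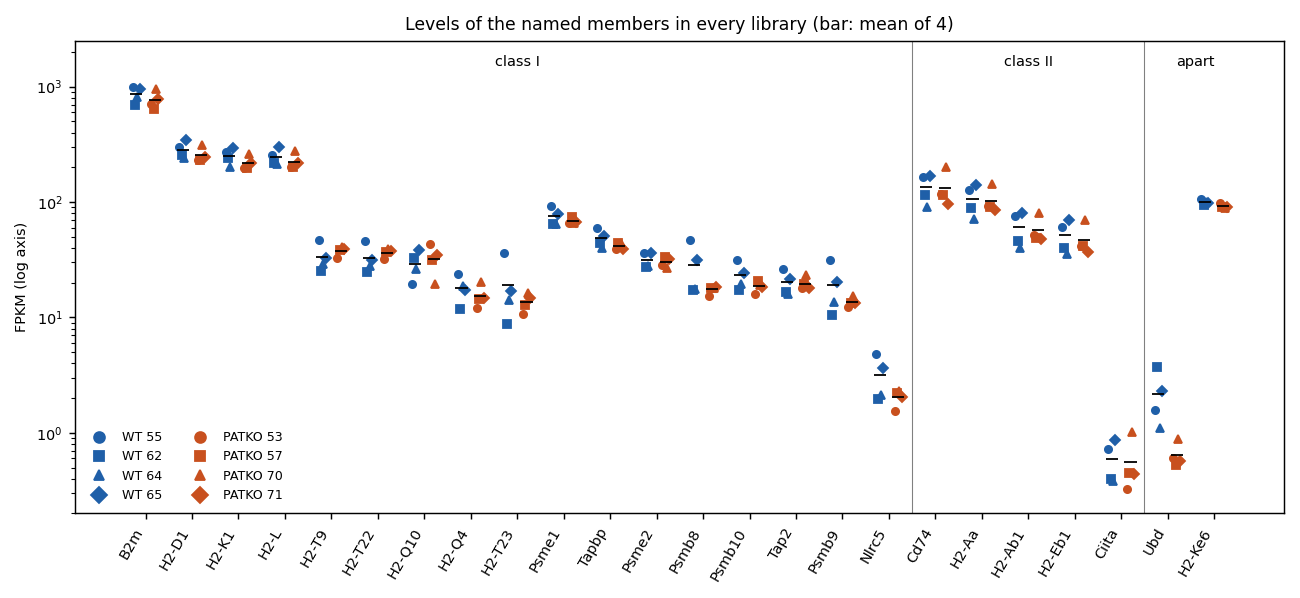
Deposited FPKM (log y axis) of 24 members (x axis) in each library; points are libraries, blue for WT and orange for PATKO, and short bars are group means of 4. WT 55 and WT 65 stand above the PATKO libraries for Psmb8 and Nlrc5, the class II genes overlap between groups, and for Ubd every PATKO library is below every WT library.

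Class II had 7 tested members, of which limma called 0 under either scaling, and 0 had an unadjusted p under 0.05. All 7 changes were below 0 under both scalings, from -0.19 to -0.03 as deposited and from -0.37 to -0.17 after scaling. The medians were -0.07 and -0.25, and the smallest limma adjusted p was 0.541 as deposited and 0.372 after scaling. As deposited, the directions rest on single libraries: without WT 65 the median was 0.07, with 1 of 7 changes below 0, and without WT 55 it was 0.04, with 3 of 7 below 0.

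Cd74, the invariant chain that blocks the class II groove until the endosome, was at 165.4, 114.6, 91.3 and 168.1 FPKM in WT and 117.9, 115.8, 199.3 and 95.9 FPKM in PATKO. PATKO 70 was the highest of all 8 libraries and WT 64 the lowest. The means were 134.8 ± 38.0 and 132.2 ± 45.8 FPKM (SD, n = 4 each), and limma gave a log2 change of -0.04 ± 0.25 with an adjusted p of 0.922.

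H2-Aa, the alpha chain of the A molecule, was at 126.4, 88.3, 70.6 and 139.8 FPKM in WT and 92.4, 89.8, 142.5 and 86.0 FPKM in PATKO. H2-Ab1, its beta chain, was at 75.2, 46.2, 40.2 and 80.8 FPKM in WT and 51.7, 49.2, 80.7 and 47.9 FPKM in PATKO. H2-Eb1, the beta chain of the E molecule, was at 61.0, 39.7, 35.6 and 70.5 FPKM in WT and 41.3, 41.7, 69.6 and 36.8 FPKM in PATKO. In all 3 genes WT 55, WT 65 and PATKO 70 formed a high set, and the other 5 libraries a low set with both genotypes in it. The log2 changes were -0.03 ± 0.23, -0.05 ± 0.24 and -0.11 ± 0.25, with limma adjusted p-values of 0.937, 0.899 and 0.756. H2-Ea-ps, the pseudogene of the E alpha chain, was listed at 0 in all 8 libraries.

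H2-DMa and H2-DMb1 encode the chaperone that exchanges peptides on class II, and both were far lower per length. H2-DMa was at 5.98, 3.08, 2.64 and 6.48 FPKM in WT and 3.19, 3.84, 6.63 and 2.77 FPKM in PATKO, and H2-DMb1 at 6.44, 3.99, 3.31 and 6.65 FPKM in WT and 3.57, 3.66, 5.82 and 4.15 FPKM in PATKO. Ciita, the class II transactivator, was at 0.727, 0.398, 0.384 and 0.863 FPKM in WT and 0.327, 0.447, 1.01 and 0.437 FPKM in PATKO, with a limma adjusted p of 0.852. WT 55, WT 65 and PATKO 70 were again the 3 highest. This held for 7 of 7 tested class II members, for 13 of 28 class I members and for 2.84% of all tested genes. H2-Oa and H2-Ob, the chains of an inhibitor of H2-DM, were under the minimum for testing, at 0.131 to 0.438 and 0.282 to 0.556 FPKM in WT and 0.067 to 0.614 and 0.249 to 0.481 FPKM in PATKO.

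**Figure D4:**
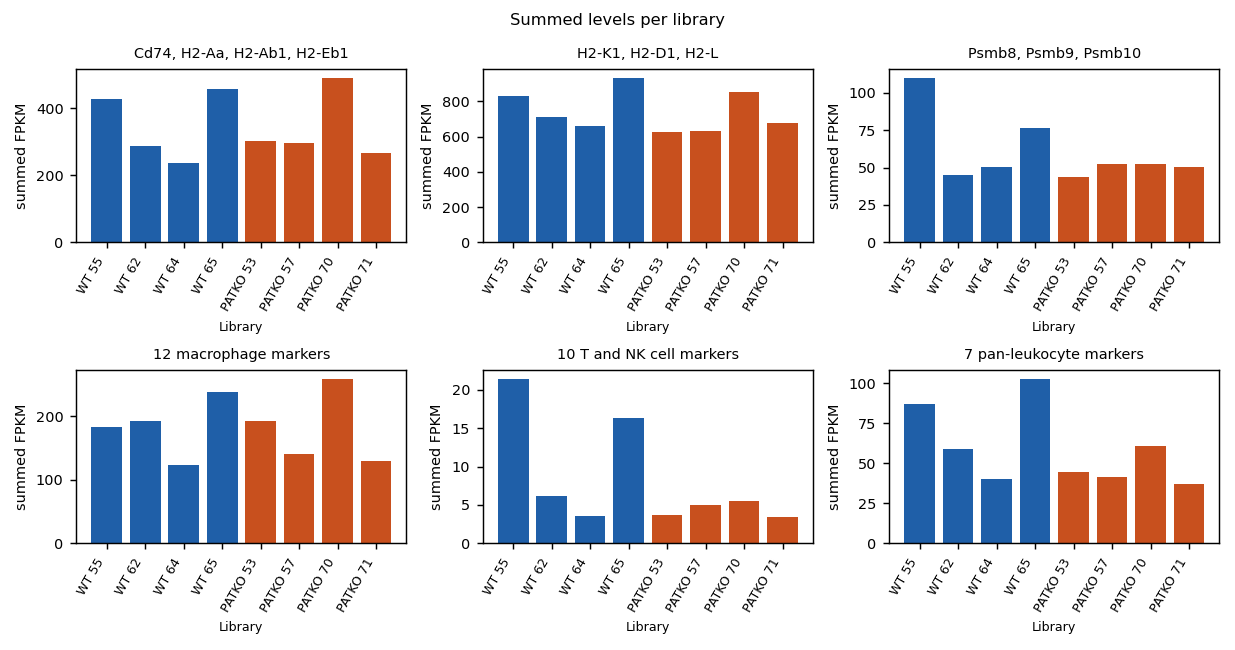
Summed deposited FPKM per library for class II, classical class I and immunoproteasome genes and for macrophage, T and NK cell and pan-leukocyte markers (y axis from 0; x axis and bars are the 8 libraries, blue for WT and orange for PATKO). Class II sums are high in WT 55, WT 65 and PATKO 70, and T and NK cell marker sums are high in WT 55 and WT 65.

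Marker levels of cells that make class II differed between libraries too. The summed class II level (Cd74, H2-Aa, H2-Ab1 and H2-Eb1) was 427.9, 288.8, 237.7 and 459.1 FPKM in WT and 303.3, 296.4, 492.1 and 266.7 FPKM in PATKO. The sum of 12 macrophage markers was 183.1, 192.3, 123.5 and 238.3 FPKM in WT and 192.8, 140.6, 259.0 and 129.8 FPKM in PATKO. In each group the highest and the lowest library were the same for both sums. None of the 12 passed limma, 6 were below 0 and 6 above 0 as deposited, with a median of -0.00 on the log2 scale, and the smallest p was that of the phagocytic receptor Mertk, at 1.80 ± 0.3303 FPKM in WT and 3.05 ± 0.904 FPKM in PATKO (SD, n = 4 each), with a limma adjusted p of 0.051. Dendritic cell markers, of which 5 of 9 were tested and 0 called, summed to 7.08 to 9.78 FPKM in WT and 5.54 to 10.4 FPKM in PATKO. B cell markers were near the floor of the table, with 1 of 7 tested and sums of 2.05 to 2.41 FPKM in WT and 1.13 to 2.15 FPKM in PATKO.

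T and NK cell markers summed to 21.4, 6.14, 3.56 and 16.4 FPKM in WT and to 3.68, 5.03, 5.56 and 3.45 FPKM in PATKO. As with the immunoproteasome and Nlrc5, WT 55 and WT 65 stood above all other libraries. Of the 10 markers, 7 were tested, 7 were below 0 and 0 were called, with the T cell kinase Lck closest at a limma adjusted p of 0.058. Of 7 pan-leukocyte markers 1 was called as deposited, Cd52, a surface glycoprotein of lymphocytes and monocytes, at 33.7, 17.1, 12.3 and 36.4 FPKM in WT and 10.4, 10.2, 10.9 and 8.09 FPKM in PATKO. Its groups did not overlap, and the log2 change was -1.16 ± 0.30 with a limma adjusted p of 0.040 (0.121 after scaling). The call was lost without any 1 library (limma adjusted p of 0.055 to 0.085), with no filter (0.068) and without the trend (0.054). The part of these cells in the levels of the class I and class II genes was not tested.

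The ratio of H2-Ab1 to Ptprc, the leukocyte surface phosphatase CD45, was 17.5, 22.1, 26.2 and 17.5 in WT and 29.6, 27.5, 32.1 and 31.01 in PATKO. Every PATKO library was above every WT library, and the PATKO mean of 30.1 ± 1.98 was above the WT mean of 20.8 ± 4.17 (SD, n = 4 each), 1.46-fold on the mean of log2 ratios. The two-sided exact permutation p was 0.0286, the smallest possible. Adjusted over the 6 ratios it is 0.171, and with this number of libraries a single ratio could not have passed, so the adjusted value says nothing either way. Ptprc itself was at 4.29, 2.09, 1.54 and 4.62 FPKM in WT and 1.75, 1.79, 2.51 and 1.54 FPKM in PATKO, with a limma adjusted p of 0.219. WT 55 and WT 65, the lowest in the ratio, were the highest in T and NK cell markers. WT 62 and WT 64, with T and NK cell marker sums of 6.14 and 3.56 FPKM, also had ratios below every PATKO library. Whether these markers bear on the ratio was not tested.

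**Figure D5:**
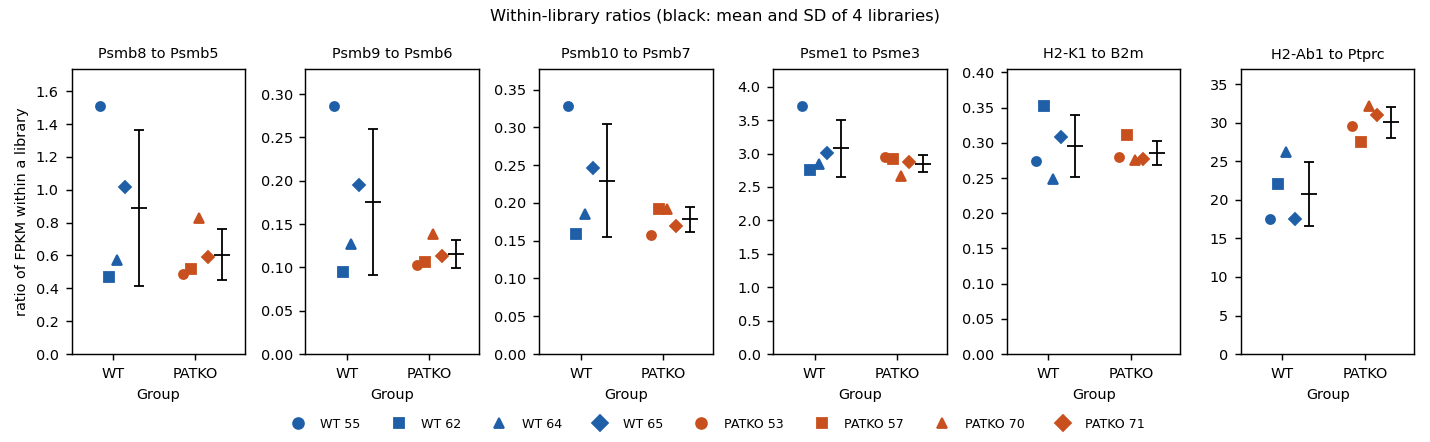
The 6 ratios of deposited FPKM within each library (y axes from 0; points are libraries, black marks are means with SD, n = 4 a group). The H2-Ab1 to Ptprc ratio is the 1 ratio without overlap, between 17.5 and 26.2 in WT and between 27.5 and 32.1 in PATKO.

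Ubd encodes FAT10, a ubiquitin-like protein that marks others for the proteasome and is induced by interferon-gamma and tumour necrosis factor. It was at 1.57, 3.68, 1.10 and 2.31 FPKM in WT and 0.602, 0.523, 0.891 and 0.568 FPKM in PATKO. Every PATKO library was below every WT library, and the highest WT library was WT 62. The summed immunoproteasome level of WT 62 was 45.1 FPKM, within the PATKO range of 43.8 to 52.3 FPKM. Its T and NK cell marker sum was 6.14 FPKM, above the PATKO range of 3.45 to 5.56 FPKM. Whether these levels bear on Ubd was not tested. The level of Ubd fell to 29.9% of the WT mean, with a log2 change of -1.13 ± 0.26 and a limma adjusted p of 0.033. With medians of ratios as the scale it was -1.27 with a limma adjusted p of 0.120. The call thus did not hold after that scaling, nor without any single library other than WT 55, where the adjusted p was 0.055 to 0.070. With levels this low, log2(FPKM + 0.5) understates the change.

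H2-Ke6, which encodes a hydroxysteroid dehydrogenase and presents no peptide, was at 105.3, 94.0, 99.8 and 97.9 FPKM in WT and 97.9, 91.1, 88.0 and 91.1 FPKM in PATKO. As deposited, the groups overlapped within a narrow range, and the log2 change was -0.11 ± 0.06 with a limma adjusted p of 0.224. After scaling the change was -0.31 with a limma adjusted p of 0.132, and every PATKO library then lay below every WT library. H2-K2, a class I pseudogene in the annotation, was at 4.30, 10.9, 3.67 and 5.11 FPKM in WT and 2.98, 3.12, 4.90 and 3.57 FPKM in PATKO. WT 62 was high for H2-K2, as it was for Ubd.

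The 21 members that were not tested include 8 listed at 0 in every library, namely H2-M1, H2-M10.1 to H2-M10.6 and H2-Ea-ps. The other 13 had means under 0.5 FPKM, among them H2-M2, H2-M5, H2-M9, H2-M11, H2-Q1, H2-Q2, H2-T3, H2-DMb2 and H2-Eb2. H2-Q1, H2-M11 and H2-T3 were above 0 in 1 library each.

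The adjusted p-values in the authors' deposited table, whose test is not given in the sources used here, put 7 members under 0.05, all lower in PATKO. In the authors' deposited table these were Ubd (0.0032), Tapbp (0.0066), H2-Ke6 (0.0083), H2-K1 (0.0094), Psmb8 (0.027), H2-D1 (0.029) and Nlrc5 (0.045). By the same column 1.81% of the genes tested here were lower and 2.43% were higher. H2-L at 0.051 and B2m at 0.053 lay just outside the threshold in the authors' deposited table, and its values for the 7 class II members tested here ran from 0.32 to 0.83. Of the 7 members that the authors' adjusted p-values put under 0.05, limma called only Ubd, as deposited.

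Other genes of the 2 pathways were taken by role. Of 16 constitutive proteasome and activator genes, limma called 0, with 7 of 16 changes below 0 as deposited and a median of 0.01. Their summed level was 972.7 ± 36.6 FPKM in WT and 991.1 ± 44.4 FPKM in PATKO (SD, n = 4 each). Of 9 tested class I loading chaperones and relatives, limma called 1 higher, beside 13.2% of all tested genes. It was Fcgrt, which encodes the neonatal Fc receptor, a class I relative that pairs with B2m. Fcgrt rose from 97.7 ± 6.11 to 120.2 ± 7.72 FPKM (SD, n = 4 each; limma adjusted p of 0.034), and it was not called after scaling (0.486). The call was also lost without the trend (0.051) and without WT 62, WT 64, WT 65, PATKO 53 or PATKO 70 (0.059 to 0.076).

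Of 8 tested class II processing genes, limma called 0; the invariant chain protease Ctss was at 25.1, 20.1, 10.8 and 36.2 FPKM in WT and 16.9, 10.8, 25.3 and 9.59 FPKM in PATKO. The 9 factors of the protein complex on class II promoters had 0 calls. Their changes were above 0 in 9 of 9 as deposited and in 3 of 9 after scaling. Among all tested genes, 16% of changes were below 0 as deposited and 51.1% after scaling. Of 10 tested genes of interferon-gamma signalling, limma called 1 higher, the receptor chain Ifngr2, beside 13.2% of all tested genes. Ifngr2 rose from 7.39 ± 0.909 to 9.98 ± 0.703 FPKM (SD, n = 4 each, limma adjusted p of 0.031). It was not called after scaling (0.237), nor without WT 62, WT 64, PATKO 53 or PATKO 70 (0.070 to 0.078). Irf1, an interferon-induced factor, was at 29.4, 16.4, 12.9 and 19.3 FPKM in WT and 15.3, 12.8, 16.7 and 12.4 FPKM in PATKO. WT 55 and WT 65 were the highest, and the limma adjusted p was 0.218. The 12 skeletal muscle markers, in contrast, were all called higher as deposited, beside 13.2% of all tested genes. Their summed level was 406.2 to 992.0 FPKM in WT and 1160 to 4510 FPKM in PATKO. After scaling 0 were called, but all 12 changes stayed above 0, with a median of 1.70. All 12 then had an unadjusted limma p under 0.05, beside 9.1% higher among all genes. In 7 of them every PATKO library lay above every WT library, beside 5.57% of all genes. The part of muscle RNA in the values above was not tested.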

How the data were processed

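Poly(A) RNA of brown adipose tissue was sequenced in 8 libraries, 4 a group, from 0.5 µg of RNA with a stranded kit, per the labels' protocols. Per the file headers, the authors deposited FPKM for 24535 gene symbols in each library, with group means, a fold and an adjusted p-value. The build was mm10, per the submitters' processing notes, and the sources used here do not give the aligner, counter, absolute depth or test. Without counts, no counting interval could be given. Group means in the file equal the means of the library columns, and 0 columns were left unmapped.

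Here, log2(FPKM + 0.5) of the 12235 genes averaging 0.5 FPKM or more was tested across all genes with limma 3.58.1 in R 4.3.3 (lmFit, eBayes with trend, two-sided), adjusted by Benjamini-Hochberg, with a threshold of 0.05. The fit was tested on simulated data with independent noise for each gene and library. Those data held no shift of whole libraries, so that test does not bear on the choice of scaling. The log2(FPKM + 0.5) scale understates changes of low genes. Ratios were tested by exact permutation in Python 3.11.15, and figures were drawn with matplotlib 3.10.9. Positions are from GENCODE M21 on GRCm38. The settings tried were other pseudocounts, filters and scalings, limma without trend and each library left out.

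Members and gene lists were chosen with earlier results of these data known. Named members were those called, those with a mean of at least 10 FPKM, those without overlap, and Ciita and Nlrc5 (24 in all). Another 12 tested members were named after their values were seen (Tap1, H2-T10, H2-T24, H2-K2, H2-Q6, H2-Q7, H2-Q8, H2-Q9, H2-DMa, H2-DMb1, H2-M3 and Erap1), as were the members under the minimum. For other lists, up to 3 genes with the smallest p were eligible, with Ptprc and the genes of the ratios; of these only some are described, and 1 result is not reported here.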

Additional observations from a re-analysis of the deposited data

Results flagged for a closer look

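In 7 of 86 groups of 4 libraries (37 tested members and 6 ratios, in each genotype), the highest library stood far from the other 3; chance alone marks about 1 in 20 such groups. In PATKO, library 70 stood above the others for H2-Aa (142.5 FPKM), H2-Ab1 (80.7 FPKM) and H2-Eb1 (69.6 FPKM). In WT, library 55 stood above the others for H2-T24 (18.3 FPKM) and H2-T10 (1.25 FPKM). In PATKO, library 57 stood above the others for Psme1 (73.7 FPKM) and for the ratio of H2-K1 to B2m (0.312). The cause of these values was not tested.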

How the results depend on the processing

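The number of genes called by limma depended on the scaling. Against 1646 as deposited, it was 713 with no filter, 992 without the trend, 28 at a common total, 18 after quantile normalization and 15 after median-of-ratios scaling. Leaving out 1 library gave 24 to 1463 as deposited. After median-of-ratios scaling it gave 57 without WT 55, 5 without WT 62, WT 64 or WT 65, 3 without PATKO 53 or PATKO 71, 6 without PATKO 57 and 8 without PATKO 70. The cause was not tested. Of the members, limma called 1 as deposited and 0 with no filter, with a mean of at least 5 FPKM (where Ubd is not tested), at a common total, after quantile normalization and after median-of-ratios scaling. Leaving out 1 library gave 0 to 2 members, and 0 after median-of-ratios scaling without any library but WT 55. The adjusted p of Ubd was 0.055 with no filter, 0.079 at a common total, 0.097 after quantile normalization and 0.120 after median-of-ratios scaling. In class I, leaving out 1 library gave 0 to 1 calls, with 1 (H2-T24) without WT 55 under both scalings.

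Signs near 0 turned. H2-Q6 (0.00 as deposited) was at -0.001 with a pseudocount of 1, -0.091 at a common total, -0.19 after quantile normalization and -0.18 after median-of-ratios scaling. H2-Q8 (0.01 as deposited) was at -0.088, -0.19 and -0.18 under the last 3 of these. H2-Q10 was at -0.049 and -0.058 under the last 2, and H2-T22 at -0.0015 under the last. With 1 library left out, log2 changes ran from -0.25 to 0.096 for Cd74, -0.25 to 0.049 for Ciita, -0.21 to 0.12 for H2-Aa, -0.22 to 0.11 for H2-Ab1, -0.31 to 0.052 for H2-Eb1 and -0.34 to 0.073 for H2-DMa. They ran from -0.063 to 0.048 for Erap1, -0.039 to 0.35 for H2-Q10, -0.30 to 0.21 for H2-Q6, -0.29 to 0.22 for H2-Q8, -0.34 to 0.20 for H2-Q9, -0.37 to 0.17 for H2-Q7, -0.60 to 0.056 for H2-T23, -0.13 to 0.0039 for Psme2 and -0.11 to 0.12 for Tap2. The log2 ratio difference ran from -0.12 to 0.050 for H2-K1 to B2m and from 0.47 to 0.67 for H2-Ab1 to Ptprc, whose unadjusted exact p was 0.0571 without any 1 PATKO library and 0.0286 without any 1 WT library. The other members named with values from the fit kept their sign in the settings run, leaving aside median-of-ratios scaling with 1 library left out. Under that scaling 25 of 28 class I changes were below 0 with all libraries, 21 without WT 55 and 26 without WT 64. Signs thus turned there too, and they were not compared member by member. No paired analysis was possible because the groups share no replicate number. With 4 libraries a group and no read counts, small differences in low genes could not be detected.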
